A study of Mus musculus with 8 samples.

Results

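The 32 genes examined here encode the steps by which a cell takes up glucose, breaks it down to pyruvate and lactate, or routes it through the pentose phosphate pathway. They were listed by name for their place in these pathways and not by measured values, and all 32 were found among the 55291 genes of the deposited count table. Glucose enters through carriers of the SLC2A family and is trapped by hexokinase. Glycolysis then turns it into pyruvate with a yield of ATP and NADH, lactate dehydrogenase converts pyruvate and NADH into lactate and NAD+, and carriers of the SLC16A family move lactate across the plasma membrane. The oxidative pentose phosphate branch yields NADPH, and the non-oxidative branch yields ribose phosphate for nucleotides. Proliferating leukaemic cells commonly run glycolysis at a high rate, and HIF and MYC are known activators of many of these genes.

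RNA sequencing was performed on sorted leukaemic granulocyte-macrophage progenitors (L-GMP) from mouse bone marrow, which the labels class as leukaemia stem cells. The gate was lineage negative, Sca-1 negative, c-Kit positive, CD16/32 positive and CD34 positive. KO libraries (n = 4) came from Dekfl/fl,MX1-Cre mice and FL libraries (n = 4) from Dekfl/fl mice, and both groups had acute myeloid leukaemia driven by the fusion oncogene MLL-AF9 and carried floxed alleles of Dek, a chromatin protein. Cre in the KO mice is under the Mx1 promoter, which is induced by interferon and is active in blood cells and other tissues. Because only KO mice carried Cre, an effect of the transgene and an effect of Dek loss cannot be told apart. The sources used here do not state age, sex or the number of primary leukaemias. The spread behind each p-value is that between libraries and may be technical.

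Dek, the targeted gene, fell to 21.2, 21.4, 31.0 and 16.7 CPM (counts per 1e+06, scaled by TMM factors) in KO, against 129, 137, 163 and 178 CPM in FL (log2 fold change -2.75, SE 0.19, adjusted p = 1.7e-05). Library totals were 33941940 to 49736592 counts in KO and 44086524 to 58660705 in FL. Between 30606 and 37801 genes had a count in a KO library, against 24125 to 26053 in an FL library. The summed level of 9 eosinophil markers, of which 6 rose and 1 fell among the 8 tested, was 288, 938, 1348 and 299 CPM in KO, against 121 to 227 CPM in FL, where Ccr3 was at 0 in every library. Of 11 neutrophil markers, 2 rose and 1 fell with TMM, and 5 rose and 1 fell with total counts. Their TMM levels summed to 203, 415, 2532 and 401 CPM in KO, against 171 to 797 CPM in FL. Levels of 4 Y-linked genes summed to 1.93, 7.49, 15.8 and 2.54 CPM in KO, against 0.111 to 0.350 CPM in FL. Xist was at 403 to 534 CPM in KO and 463 to 608 CPM in FL. The monocyte and macrophage markers, with 2 higher and 4 lower of 8 tested, summed to 2617 to 3498 CPM in KO, against 3585 to 6854 CPM in FL. Ly6c2, the most abundant of them, averaged 1504 CPM in KO and 3843 CPM in FL. F13a1, the next by level, averaged 1114 CPM in KO and 622 CPM in FL (adjusted p = 0.074). The mast cell and basophil markers, with 1 higher and 2 lower of 4 tested, summed to 65.6 to 106 CPM in KO, against 148 to 308 CPM in FL. In that list Cpa3, a mast cell protease, was 26.3-fold lower (adjusted p = 2.3e-04). Neither sum separated the groups with total counts, at 3177 to 4376 CPM in KO against 3267 to 4675 CPM in FL, and at 79.7 to 132 CPM in KO against 101 to 244 CPM in FL. The T and NK markers, with 2 higher and none lower of 3 tested, summed to 3.88 to 4.62 CPM in KO, against 1.425 to 1.77 CPM in FL, and Trbc2 was at 0 throughout. Sums of megakaryocyte and B lymphoid markers overlapped between the groups under both scalings, and erythroid sums overlapped with TMM but were higher in every KO library with total counts (5.69 to 46.2 CPM in KO, against 2.22 to 4.47 CPM in FL). The sort markers Kit and Ly6a were higher in KO, at 154 ± 31.5 and 1.64 ± 0.87 CPM, against 91.1 ± 11.4 and 0.34 ± 0.24 CPM in FL (SD). With TMM, Cd34 and Fcgr3 were lower in KO, at 461 ± 58.8 and 362 ± 83.8 CPM, against 710 ± 77.0 and 644 ± 162 CPM in FL, and neither passed with total counts (adjusted p = 0.88 and 0.32). Fcgr2b, the remaining sort marker, did not pass with TMM, at 191.5 ± 31.9 CPM in KO and 199.4 ± 26.0 CPM in FL (adjusted p = 0.79). It passed as higher with total counts (log2 fold change 0.52, adjusted p = 0.025). The part these cell and library differences play in the results below was not tested.

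Of the 32 genes, 31 passed the filter on low counts. Under TMM scaling, 22 were lower and 1 was higher in KO at an adjusted p under 0.05 (edgeR quasi-likelihood test), against 14.9% and 13% of all 17418 genes tested. The median log2 fold change of the 31 was -1.01, against 0.05 over all genes tested. All KO libraries lay under all FL libraries for 20 of the 31, which held for 15.8% of all genes, and the reverse was seen for 2, Ldhb and Pfkfb3, which held for 15.1%. In bulk RNA, fewer cells of a type and less of a transcript per cell cannot be told apart. With TMM the genes that fell included carriers, most glycolytic enzymes from glucose phosphate isomerase to lactate dehydrogenase A, and 5 of 6 pentose phosphate enzymes. The gene that rose was Ldhb, the other lactate dehydrogenase subunit. Without KO replicates 2 and 3, which were highest in eosinophil markers, 15 genes were lower, and Slc2a1, Pfkl, Pfkm, Pfkp, Aldoc, Pdha1 and Pgls did not pass (adjusted p between 0.084 and 0.25). The log2 fold changes of these 7 were then -1.30 to -0.29, against -1.53 to -0.37 with all libraries, and relative to the median of all genes the 31 stood at -1.03, against -1.06.

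**Figure D1:**
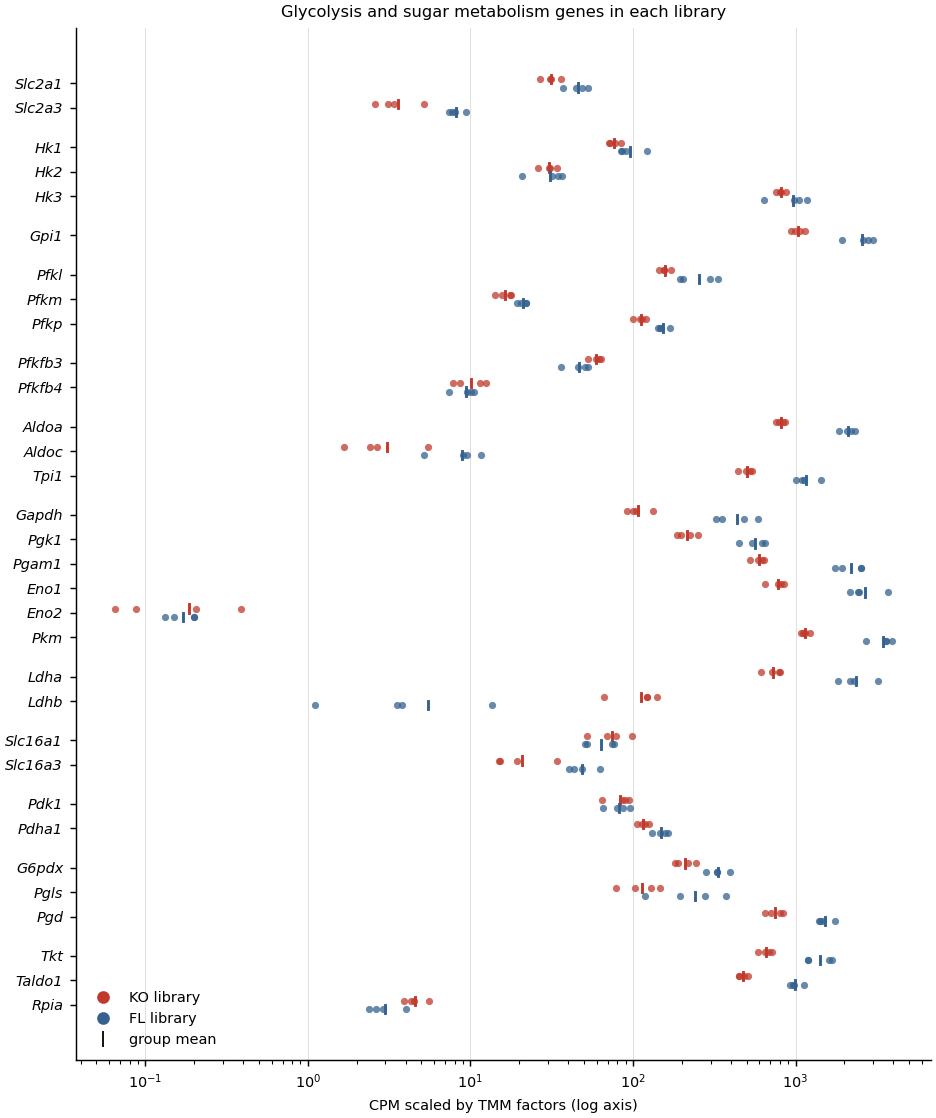
Level of each of the 32 genes in every library, in CPM scaled by TMM factors on a log axis, ordered by pathway step from glucose uptake to the pentose phosphate pathway. Red points are KO libraries and blue points FL libraries (n = 4 each), with a vertical bar at each group mean. From Aldoa to Ldha the KO points lie left of the FL points except for Aldoc and the barely detected Eno2, while Ldhb lies far to the right in KO.

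The size of these changes depends on how libraries are scaled. TMM factors were 1.2 to 1.26 in KO and 0.682 to 0.912 in FL, and without them (total-count scaling) the median of all genes moved up by 0.59 on the log2 scale, to 0.64. On that scale 14 of the 31 genes were lower and 7 higher, against 5.09% and 51.7% of all genes tested, and the median of the 31 was -0.41. Relative to the median of all genes, the 31 stood at -1.06 with TMM and at -1.05 with total counts. A change of scaling moves all genes by nearly the same amount, so this distance could hardly change and is no check on the scaling. Moving from total counts to TMM lowers the estimates, and all 14 of the genes lower under total counts were also lower under TMM. The 8 that were lower under TMM alone were Slc2a1, Slc2a3, Pfkl, Pfkm, Pfkp, Pdha1, G6pdx and Pgls. When genes detected per library entered the fit as a covariate, which separates the groups, 1.18% of all genes were called either way and Gapdh was the only one of the 31. The median of the 31 was then -0.88, and 25 lay below 0, as many as without the covariate. A single gene, CT010467.1, held 24660 to 28200 CPM in KO with TMM, against 27430, 48390, 33650 and 137600 CPM in FL. FL replicate 4, with the highest of these levels, also had the lowest TMM factor (0.682). The part of this gene in the scaling was not tested.

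**Figure D2:**
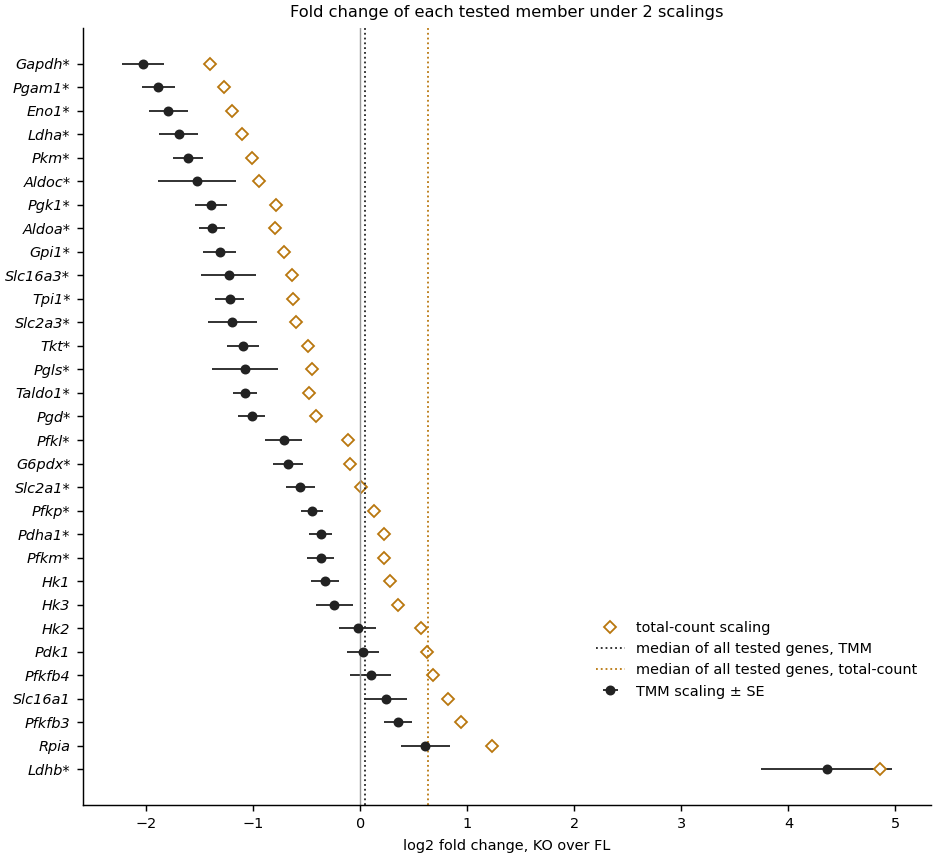
Log2 fold change of KO over FL for the 31 tested genes, sorted by size. Filled points are TMM-scaled estimates with their standard errors, open diamonds are total-count estimates, dotted lines are the medians of all tested genes under each scaling, and an asterisk marks an adjusted p under 0.05 with TMM. Ldhb stands at 4.36 and Gapdh at -2.03 with TMM, and Slc2a1, the phosphofructokinases and Pdha1 lie near 0 with total counts.

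Both glucose carriers fell under TMM scaling and did not pass under total counts, where their log2 fold changes were 0.01 for Slc2a1 (adjusted p = 0.97) and -0.60 for Slc2a3 (adjusted p = 0.053). Slc2a1, the widespread basal carrier GLUT1, had 30.7, 26.7, 31.2 and 35.9 CPM in KO, against 48.5, 53.2, 44.5 and 37.4 CPM in FL. The groups did not overlap, and KO replicate 4 and FL replicate 4 lay next to each other (log2 fold change -0.56, SE 0.14, adjusted p = 0.011). Slc2a3, the high-affinity carrier GLUT3, had 2.60, 3.41, 5.17 and 3.10 CPM in KO, against 7.99, 7.39, 9.45 and 7.75 CPM in FL (log2 fold change -1.19, SE 0.23, adjusted p = 0.0033). Without KO replicates 2 and 3 the estimate for Slc2a1 was -0.46 (adjusted p = 0.12) and that for Slc2a3 was -1.51 (adjusted p = 0.0069).

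None of the 3 hexokinases, which phosphorylate glucose and so keep it in the cell, passed the test. Hk3 was the most abundant, at 221 CPM per kb of exon in KO and 261 in FL, whereas Hk1 and Hk2 were at 5.09 to 11.2 CPM per kb. Its libraries held 762, 815, 798 and 878 CPM in KO, against 1047, 974, 642 and 1178 CPM in FL (log2 fold change -0.24, SE 0.17, adjusted p = 0.32). FL replicate 3 lay below every KO library, and without it Hk3 passed (log2 fold change -0.39, adjusted p = 0.037). Hk1 averaged 76.3 ± 6.08 CPM in KO and 95.7 ± 17.4 CPM in FL (SD, n = 4 each; adjusted p = 0.090). Hk2, the inducible form, averaged 30.4 ± 3.24 CPM in KO and 30.9 ± 6.96 CPM in FL (log2 fold change -0.02, SE 0.17, adjusted p = 0.93). With total counts the estimates of Hk1 and Hk3 turned to 0.28 and 0.36 without passing, and that of Hk2 turned to 0.57 and passed (adjusted p = 0.024).

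Gpi1, the isomerase that makes fructose phosphate from glucose phosphate, fell to 988, 941, 1142 and 1073 CPM in KO, against 2600, 1925, 2985 and 2790 CPM in FL. The FL values were well above every KO value (a 2.49-fold drop; log2 fold change -1.31, SE 0.15, adjusted p = 2.2e-04). All 3 subunits of phosphofructokinase, the enzyme of the committed step of glycolysis, were lower in KO with TMM, and none passed with total counts, where Pfkl stood at -0.12, Pfkm at 0.23 and Pfkp at 0.13. Pfkl, the liver-type subunit, had 170, 145, 156 and 156 CPM in KO, against 332, 194, 204 and 297 CPM in FL (log2 fold change -0.71, SE 0.17, adjusted p = 0.011). FL replicates 2 and 3 lay closer to the KO libraries than FL replicates 1 and 4 did. Pfkp, the platelet-type subunit, averaged 111 ± 8.69 CPM in KO and 152 ± 11.9 CPM in FL (SD; log2 fold change -0.45, SE 0.11, adjusted p = 0.0089). Pfkm, the muscle-type subunit, averaged 16.2 ± 1.76 CPM in KO and 20.96 ± 1.20 CPM in FL and lay at the threshold (log2 fold change -0.37, SE 0.13, adjusted p = 0.0499). It lost its call when KO replicate 1, 2 or 3 or any 1 FL library was left out, with adjusted p between 0.067 and 0.13.

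Pfkfb3 and Pfkfb4, which encode bifunctional enzymes that set the level of a bisphosphate activator of phosphofructokinase, did not pass. Pfkfb3 had 61.8, 53.2, 59.1 and 63.8 CPM in KO, against 50.9, 46.0, 36.3 and 52.7 CPM in FL. Every KO library lay above every FL library, with KO replicate 2 and FL replicate 4 next to each other, giving an estimate of 0.36 on the log2 scale (SE 0.13, adjusted p = 0.065). It passed without FL replicate 4 (0.41, adjusted p = 0.040), with DESeq2 (adjusted p = 0.047), with a stricter filter on low counts (adjusted p = 0.033) and with total counts (0.95, adjusted p = 5.2e-04). Pfkfb4 averaged 10.1 ± 2.17 CPM in KO and 9.40 ± 1.39 CPM in FL (SD; log2 fold change 0.10, SE 0.19, adjusted p = 0.73), and passed with total counts (0.69, adjusted p = 0.019).

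Aldolase splits the hexose into triose phosphates, and triose phosphate isomerase converts one triose into the other. Aldoa, which made up 99.4% to 99.8% of the counts of the aldolases Aldoa and Aldoc in every library, fell to 792, 756, 832 and 857 CPM in KO, against 2203, 1852, 2310 and 2084 CPM in FL. The KO libraries were tightly grouped, with the lowest relative spread of the 31 genes, and lay below all FL libraries (2.61-fold lower, log2 fold change -1.38, SE 0.12, adjusted p = 4.7e-05). Tpi1 fell to 498, 522, 539 and 444 CPM in KO, against 1129, 1007, 1431 and 1091 CPM in FL (log2 fold change -1.22, SE 0.14, adjusted p = 1.7e-04). Aldoc, the brain-type aldolase, was low in all libraries, at 1.67, 2.66, 2.43 and 5.48 CPM in KO, against 9.06, 11.6, 5.16 and 9.52 CPM in FL. KO replicate 4 and FL replicate 3 overlapped (log2 fold change -1.53, SE 0.36, adjusted p = 0.010).

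The 3 largest falls of the 31 genes were in the steps from glyceraldehyde phosphate to pyruvate, in Gapdh, Pgam1 and Eno1. Gapdh, which oxidises glyceraldehyde phosphate and yields NADH, fell to 101, 104, 132 and 91.3 CPM in KO, against 326, 353, 483 and 585 CPM in FL. The groups were far apart, with a fitted level 4.08-fold lower (log2 fold change -2.03, SE 0.20, adjusted p = 9.1e-05). Gapdh still passed under total counts (-1.40, adjusted p = 2.6e-05) and with genes detected as a covariate (adjusted p = 0.038). Pgk1, an X-linked gene for the first ATP-forming enzyme of glycolysis, fell to 226, 198, 253 and 186 CPM in KO, against 536, 450, 652 and 620 CPM in FL (log2 fold change -1.39, SE 0.15, adjusted p = 1.5e-04). Pgam1, the mutase that moves the phosphate of phosphoglycerate, fell to 591, 522, 621 and 641 CPM in KO, against 1945, 1761, 2531 and 2534 CPM in FL. It had the smallest adjusted p of the 31, 3.8e-05, at a level 3.69-fold lower (log2 fold change -1.89, SE 0.15).

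Enolase makes phosphoenolpyruvate, and pyruvate kinase turns that into pyruvate with the second gain of ATP. Eno1 fell to 818, 780, 853 and 650 CPM in KO, against 2472, 2154, 3691 and 2416 CPM in FL. FL replicate 3 was the highest library and KO replicate 4 the lowest (log2 fold change -1.79, SE 0.18, adjusted p = 1.1e-04). Eno2, the neuronal enolase, had 4 to 16 counts per library in KO and 6 to 8 in FL and was removed by the filter on low counts. When no filter was used it stood at 0.05 on the log2 scale (adjusted p = 0.97). Pkm, which encodes both splice forms of muscle-type pyruvate kinase, fell to 1140, 1075, 1223 and 1108 CPM in KO, against 3597, 2731, 3908 and 3598 CPM in FL (3.04-fold lower, log2 fold change -1.61, SE 0.14, adjusted p = 4.8e-05). The gene counts do not separate its splice forms. Per kb of exon, Pgam1 was the most abundant of the 32 in both groups, at 300 CPM per kb in KO and 1106 in FL. The next in FL were Aldoa, Ldha and Pkm, at 726, 716 and 692 CPM per kb, and the same genes stood at 278, 221 and 227 in KO.

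The 2 lactate dehydrogenase genes moved in opposite directions. Ldha encodes the subunit that predominates in glycolytic cells and favours lactate formation, and Ldhb the heart-type subunit, which favours lactate oxidation. Both are protein-coding genes, Ldha at chr7:46841475-46855627 and Ldhb at chr6:142490249-142507957 (mm10, GENCODE M21). Ldha fell to 795, 713, 808 and 611 CPM in KO, against 2284, 1830, 3208 and 2160 CPM in FL (3.24-fold lower, log2 fold change -1.70, SE 0.18, adjusted p = 1.4e-04). Ldhb rose to 141, 121, 66.3 and 123 CPM in KO, against 3.55, 13.6, 3.82 and 1.10 CPM in FL. The lowest KO library was KO replicate 3, and the highest FL library was FL replicate 2. The raw counts behind these levels were 7574, 5554, 2731 and 7570 in KO, against 160, 545, 154 and 44 in FL. The fitted rise was 20.5-fold (log2 fold change 4.36, SE 0.61, adjusted p = 5.8e-04), and 40.1-fold without FL replicate 2. It passed in 17 of the 18 alternatives, and with genes detected as a covariate it kept its size without passing (4.43, adjusted p = 0.094). KO replicate 3, the lowest KO library for Ldhb, was the highest for the eosinophil, neutrophil and Y-linked sums.

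Within a library, the share of a family's counts that 1 gene takes does not depend on scaling between libraries. Ldhb took 15.0%, 14.5%, 7.59% and 16.7% of the counts of Ldha and Ldhb in KO, against 0.155%, 0.736%, 0.119% and 0.051% in FL. Per length of exon the Ldhb share averaged 24.5% ± 6.66 in KO and 0.56% ± 0.66 in FL (SD, n = 4 each). Ldha was the more abundant in every library. These shares are given as a description without a test. The lactate carrier shares did not overlap either and are given with their levels. Shares of the groups overlapped for the glucose carriers, hexokinases, phosphofructokinases, Pfkfb enzymes and aldolases. Hk3 took 88.4% ± 1.04 of hexokinase counts in KO and 88.1% ± 2.08 in FL, and Pfkl took 55.1% ± 1.58 of phosphofructokinase counts in KO and 59.1% ± 5.31 in FL. The Eno2 share of enolase counts was higher in every KO library, but at 0.046% or less it rested on 16 or fewer counts.

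**Figure D3:**
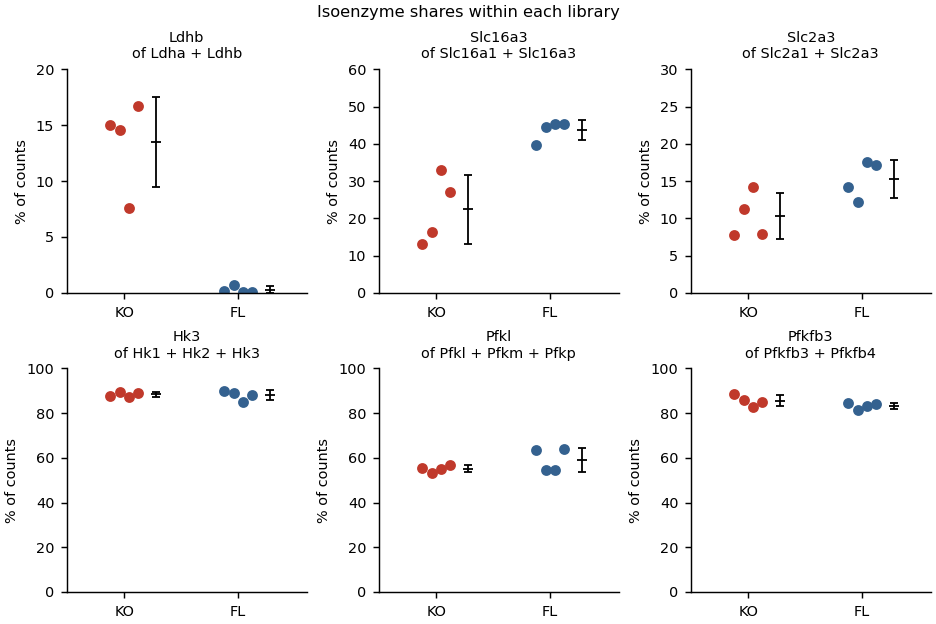
Share of 1 isoenzyme in the summed counts of its family, in percent, for each KO (red) and FL (blue) library, with the group mean and SD in black and n = 4 each. Vertical axes start at 0 and differ between panels. The groups do not overlap for Ldhb (7.59% to 16.7% in KO, 0.051% to 0.736% in FL) or for Slc16a3, and they overlap for Slc2a3, Hk3, Pfkl and Pfkfb3.

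The stretches before the start sites of Ldha and Ldhb are shown because these paralogues moved in opposite directions, and that of Pgam1 because it had the smallest adjusted p. Each is the 250 bases before the first start listed by RefSeq (GRCm38.p6), on the gene's strand. For Ldha, with 2 listed starts, the stretch lies inside the span that GENCODE M21 gives the gene, which begins farther upstream. Capitals mark CACGTG (E-box, the site bound by MYC), ACGTG (a form of the core of the hypoxia response element bound by HIF) and GGGCGG (GC box) on either strand. The other form of that core, GCGTG, was neither searched for nor marked in these stretches. No match to TGATTNAT, a PBX-HOX site, was found in them.
Pgam1 (chr19:41911621-41911870, plus strand): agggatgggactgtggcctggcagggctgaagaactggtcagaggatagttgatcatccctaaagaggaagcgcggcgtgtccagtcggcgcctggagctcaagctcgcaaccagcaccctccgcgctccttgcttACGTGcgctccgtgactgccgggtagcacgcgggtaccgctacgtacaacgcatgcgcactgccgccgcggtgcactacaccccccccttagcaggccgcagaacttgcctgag
Ldha (chr7:46845554-46845803, plus strand): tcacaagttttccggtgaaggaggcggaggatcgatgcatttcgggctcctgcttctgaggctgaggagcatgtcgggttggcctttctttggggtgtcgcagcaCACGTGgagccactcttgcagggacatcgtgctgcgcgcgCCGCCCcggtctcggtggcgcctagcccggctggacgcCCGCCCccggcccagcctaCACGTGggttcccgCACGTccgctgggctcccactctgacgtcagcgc
Ldhb (chr6:142507958-142508207, minus strand): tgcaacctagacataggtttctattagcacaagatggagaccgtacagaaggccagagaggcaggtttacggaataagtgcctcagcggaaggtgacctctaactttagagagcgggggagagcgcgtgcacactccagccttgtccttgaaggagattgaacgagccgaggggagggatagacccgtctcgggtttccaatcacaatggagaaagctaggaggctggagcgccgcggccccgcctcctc
The Ldha stretch held 2 E-boxes, 5 matches to ACGTG, of which each E-box gives a pair because it reads the same on both strands, and 2 GC boxes. The Pgam1 stretch held 1 ACGTG, and the Ldhb stretch held none of the marked letters. Both of these stretches hold GCGTG, which was not counted, so the ACGTG counts do not compare HIF cores between the genes. In windows from 250 bases before to 50 after the start, CACGTG was found for 3 of the 31 genes with an entry (Ldha, Slc16a1 and Pfkm), against 7.24% of 27025 promoters. ACGTG was found for 13 of 31, against 19.7%, GGGCGG for 22 of 31, against 35.9%, and TGATTNAT for 1 of 31 (Tkt), against 3.36%. The 27025 promoters were not matched to the 31 for GC content or level, and no test was made of these shares. A match is not evidence of binding.

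Slc16a1 and Slc16a3 encode the monocarboxylate carriers MCT1 and MCT4, of which MCT4 is known for lactate export in glycolytic cells. Slc16a3 fell to 15.0, 15.3, 34.0 and 19.4 CPM in KO, against 48.9, 40.4, 62.8 and 43.6 CPM in FL. KO replicate 3 and FL replicate 2 were nearest each other without overlap (log2 fold change -1.23, SE 0.26, adjusted p = 0.0052, and -0.64 with adjusted p = 0.042 under total counts). Slc16a1 did not pass, with 99.1, 78.4, 69.2 and 52.0 CPM in KO, against 74.4, 50.5, 76.0 and 52.4 CPM in FL (log2 fold change 0.24, SE 0.20, adjusted p = 0.41). It passed as higher under total counts (0.82, adjusted p = 0.0063). Slc16a3 thus took 13.2%, 16.3%, 33.0% and 27.1% of the counts of both carriers in KO, against 39.7%, 44.5%, 45.3% and 45.4% in FL.

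Pyruvate dehydrogenase feeds pyruvate into the citric acid cycle, and its kinases switch it off. Pdha1, the X-linked catalytic alpha subunit, averaged 116 ± 8.54 CPM in KO and 150 ± 14.5 CPM in FL (SD; log2 fold change -0.37, SE 0.11, adjusted p = 0.027). Its direction depended on scaling, with 0.22 under total counts (adjusted p = 0.19). The call was also lost without KO replicate 2 or 3 or FL replicate 1 or 3, with adjusted p between 0.058 and 0.083, and with replicate numbers as a block (adjusted p = 0.054). Pdk1, a kinase of the complex known as a HIF target, averaged 83.7 ± 13.2 CPM in KO and 82.2 ± 12.9 CPM in FL (log2 fold change 0.03, SE 0.15, adjusted p = 0.91). Under total counts it passed at 0.62 (adjusted p = 0.0074), which was close to the all-gene median on that scale.

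All 3 genes of the oxidative pentose phosphate branch, which makes NADPH, were lower in KO with TMM, and G6pdx and Pgls did not pass with total counts (-0.10 and -0.45, adjusted p = 0.64 and 0.14). G6pdx, the X-linked gene for the rate-limiting dehydrogenase, had 182, 190, 244 and 219 CPM in KO, against 396, 327, 283 and 329 CPM in FL (log2 fold change -0.68, SE 0.14, adjusted p = 0.0045). KO replicate 3 and FL replicate 3 lay closest. Pgls, the lactonase of the branch, had 146, 103, 129 and 78.8 CPM in KO, against 195, 119, 373 and 276 CPM in FL. FL replicate 2 fell within the KO range (log2 fold change -1.08, SE 0.31, adjusted p = 0.023), and leaving out KO replicate 2, KO replicate 4 or FL replicate 3 ended the call (adjusted p = 0.067, 0.059 and 0.073). Pgd, which makes the second NADPH and releases ribulose phosphate, fell to 704, 645, 834 and 804 CPM in KO, against 1486, 1389, 1420 and 1738 CPM in FL (log2 fold change -1.01, SE 0.13, adjusted p = 3.6e-04).

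The non-oxidative branch links ribose phosphate with glycolytic sugars. Transketolase and transaldolase, which shuttle carbon units between sugar phosphates, fell, and Rpia, the isomerase that forms ribose phosphate, did not pass. Tkt had 720, 652, 690 and 586 CPM in KO, against 1186, 1195, 1600 and 1685 CPM in FL (log2 fold change -1.10, SE 0.15, adjusted p = 4.8e-04). Taldo1 had 450, 452, 480 and 513 CPM in KO, against 923, 973, 1120 and 971 CPM in FL (log2 fold change -1.07, SE 0.11, adjusted p = 1.3e-04). Both stayed lower under total counts, at -0.49 and -0.48. Rpia was low throughout, with 3.90, 4.32, 5.53 and 4.47 CPM in KO, against 2.62, 2.39, 2.90 and 4.02 CPM in FL. FL replicate 4 lay within the KO range (log2 fold change 0.61, SE 0.23, adjusted p = 0.067). Without it Rpia passed as higher (0.77, adjusted p = 0.025), as it did with DESeq2, with limma-voom and under total counts (adjusted p = 0.028, 0.027 and 8.9e-04).

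As a share of the library, the counts of all 32 genes were 1.19%, 1.17%, 1.27% and 1.20% in KO, against 2.08%, 1.82%, 2.19% and 1.71% in FL. Gpi1, Aldoa, Tpi1, Gapdh, Pgk1, Pgam1, Eno1, Pkm and Ldha, a group of 9 that leaves out the abundant Hk3 and the phosphofructokinases, together made up 0.702% to 0.777% of counts in KO and 1.22% to 1.68% in FL. These shares use raw totals, and the groups did not overlap. All of the 9 were called lower under both scalings, so the gap in their sum follows from the choice of genes. Among FL libraries, FL replicate 2 was the lowest for 20 of the 31 tested genes and FL replicate 3 the highest for 14. Among KO libraries, KO replicate 3 was the highest for 14 and KO replicate 2 the lowest for 10. The median coefficient of variation of the 31 genes was 11.4% in KO and 17.9% in FL.

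Abundant genes in general were lower in KO, so the 31 genes were set beside genes of like level. Of 273 genes with a mean of 500 CPM or more, 86.8% were called lower and their median log2 fold change was -1.09. The 11 sugar genes in that range had 10 called lower, a share near that background, with a median of -1.31, and Hk3 was the one that did not pass. Between 100 and 500 CPM, 47.8% of 1590 genes were called lower with a median of -0.36, and all 7 sugar genes there were called lower with a median of -0.71. Between 10 and 100 CPM, 12.8% of 6686 genes were called lower, and 3 of 9 sugar genes were (Slc2a1, Pfkm and Slc16a3), with medians of 0.01 for all genes and -0.02 for the 9. Below 10 CPM, 8.35% of 8869 genes were called lower, and 2 of 4 sugar genes were (Slc2a3 and Aldoc). Ldhb, at 4.36 in a range with a median of 0.01, lay farthest from the genes of like level, followed by Aldoc, at -1.53 against 0.28, and Gapdh, at -2.03 against -0.36. Groups of genes by level were chosen with earlier results known and no test was made of these differences.

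**Figure D4:**
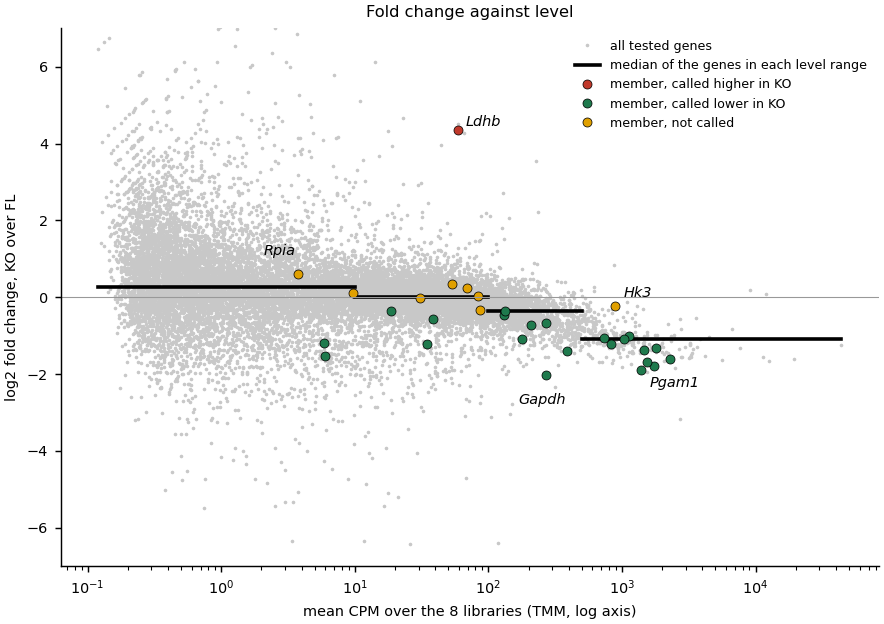
Log2 fold change of KO over FL (TMM) against mean level over the 8 libraries on a log axis. Grey dots are all tested genes, of which 16 lie beyond the vertical axis limits of 7, black bars are medians of genes in each level range, and large points are the sugar genes, coloured by call. The black bars step down to -1.09 at 500 CPM and above, where 10 of 11 sugar genes were called lower and Hk3 was not.

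Other genes of sugar metabolism were read from the same fit. Of 119 such genes in 11 lists, 98 were tested, 6 were higher and 32 lower in KO with TMM, and 37 were higher and 7 lower with total counts. Of all genes tested, 13% were higher and 14.9% lower with TMM, and 51.7% were higher and 5.09% lower with total counts. Their median log2 fold change was -0.24 with TMM and 0.34 with total counts. Among other glucose carriers, 2 of 4 tested fell under both scalings. Slc2a6, a lysosomal carrier of myeloid cells, fell to 10.9 ± 4.11 CPM in KO, against 59.9 ± 11.9 CPM in FL (SD; log2 fold change -2.46, SE 0.25, adjusted p = 1.1e-04), and Slc2a5, a fructose carrier, to 2.81 ± 1.26 CPM, against 9.56 ± 2.57 CPM in FL (log2 fold change -1.77, adjusted p = 0.0040). Emb and Bsg, chaperones of the SLC16A lactate carriers, fell by 1.30 and 0.82 on the log2 scale, from the list of 3 lactate carrier genes tested, and Bsg did not pass with total counts (adjusted p = 0.15). Without KO replicates 2 and 3, genes named below that no longer passed were Ldhc, Tigar, Mpc1, Mpc2, Pdhb, Prps1l3, Gyg, Gaa, Pgm1, Pgm2 and Gfpt1 (adjusted p between 0.058 and 0.44). Apart from Ldhc, their log2 fold changes then lay between -0.80 and 0.62, against -0.78 and 0.70 with all libraries.

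Of 12 other glycolytic isoenzymes tested, 1 rose and 1 fell with TMM. With total counts 4 were higher and none lower, against 51.7% and 5.09% of all genes tested. Ldhc, the testis-type lactate dehydrogenase, was at 0.204, 1.86, 1.48 and 0.178 CPM in KO, against 0.022 to 0.20 CPM in FL. KO replicates 2 and 3 were high and the other KO libraries were not, and the call (log2 fold change 3.39, adjusted p = 0.021) ended on leaving out KO replicate 2 (2.80, adjusted p = 0.068), FL replicate 1 (3.06, adjusted p = 0.054) or FL replicate 3 (3.47, adjusted p = 0.053). Without KO replicates 2 and 3 together its estimate was 1.13 (adjusted p = 0.44), and without FL replicate 4 its fold was 18.0 in place of 10.5. Tigar, a bisphosphatase that diverts sugar to the pentose phosphate pathway, was lower with TMM (log2 fold change -0.78, adjusted p = 0.034), with FL replicate 4 inside the KO range. It did not pass with total counts (-0.22, adjusted p = 0.50). Its call was lost when KO replicate 1, 2 or 4 or FL replicate 1, 2 or 3 was left out, with adjusted p between 0.061 and 0.10.

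The genes for pyruvate entry into mitochondria held 6 lower of 11 tested and none higher with TMM, but none lower and 1 higher with total counts (all genes: 14.9% lower with TMM, 5.09% lower and 51.7% higher with total counts). Mpc1 and Mpc2, which form the mitochondrial pyruvate carrier, and Pdhb, the beta subunit of pyruvate dehydrogenase, were lower with TMM (log2 fold changes -0.58, -0.63 and -0.53). With total counts their log2 fold changes were 0.00, -0.04 and 0.05. The NADH shuttles, which carry reducing equivalents into mitochondria, held 7 lower of 10 with TMM, of which 3 were lower and 2 other genes higher with total counts. Got1, the cytosolic aspartate aminotransferase, fell to 8.004, 10.09, 12.99 and 10.16 CPM in KO, against 36.9, 34.5, 35.6 and 32.5 CPM in FL. The groups were tight and far apart (log2 fold change -1.76, SE 0.15, adjusted p = 5.0e-05), and Got1 also passed with genes detected as a covariate (adjusted p = 0.018). Mdh2 and Mdh1, the mitochondrial and cytosolic malate dehydrogenases, fell by 1.19 and 0.66 on the log2 scale, and Mdh1 did not pass with total counts (adjusted p = 0.66).

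Fbp1, the bisphosphatase that runs the phosphofructokinase step in reverse for gluconeogenesis, rose to 240, 257, 142 and 248 CPM in KO, against 55.4, 24.7, 36.2 and 19.4 CPM in FL. KO replicate 3 was the lowest KO library, as it was for Ldhb, and the groups did not overlap (6.54-fold higher, log2 fold change 2.71, SE 0.32, adjusted p = 2.2e-04). Fbp1 passed in all 18 alternatives, including total counts (3.27) and genes detected as a covariate (3.43, adjusted p = 0.036). In the same list of 5 tested, Slc37a4, the carrier of glucose phosphate into the endoplasmic reticulum, and Pck2, the mitochondrial carboxykinase, were lower with TMM (-0.69 and -0.51) and did not pass with total counts (-0.11 and 0.09). Galm, a mutarotase of the galactose pathway, rose to 17.3, 22.0, 19.9 and 20.6 CPM in KO, against 6.15, 3.09, 1.51 and 3.60 CPM in FL. The groups did not overlap (5.55-fold higher, log2 fold change 2.47, SE 0.33, adjusted p = 4.7e-04). Khk and Akr1b3, a fructokinase and aldose reductase, were lower with TMM (-1.08 and -0.68), 2 of 4 such genes among 7 tested, and Akr1b3 did not pass with total counts (adjusted p = 0.60).

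In the glycogen list 5 of 12 tested genes were lower with TMM and none with total counts, where 6 were higher, near the 51.7% of all genes called higher on that scale. Gyg, the glycogenin primer, Gaa, the lysosomal glucosidase, and Pgm1, a phosphoglucomutase, were lower with TMM (log2 fold changes -0.55, -0.61 and -0.49). With total counts their log2 fold changes were 0.04, -0.01 and 0.09. The gene of that list that was higher was Pgm2, at 44.9 ± 0.96 CPM in KO and 32.5 ± 3.83 CPM in FL (log2 fold change 0.46, adjusted p = 0.010), named after its values were seen. Of 13 genes of hexosamine and nucleotide sugar synthesis, Gfpt1, the rate-limiting enzyme of the hexosamine pathway, rose (log2 fold change 0.70, adjusted p = 0.0089) and Pmm1, a phosphomannomutase, fell with TMM (-1.11, adjusted p = 0.0030) but did not pass with total counts (-0.53, adjusted p = 0.063). Prps1 and Prps1l3, of the phosphoribosyl pyrophosphate synthetase family, were lower with TMM (-0.71 and -0.41) and did not pass with total counts (-0.13 and 0.18), among 8 ribose genes tested. Prps1l3 also lost its call without KO replicate 2 or 4 or FL replicate 1 (adjusted p between 0.073 and 0.096).

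Of 13 regulators of the pathway tested, 1 rose. Sirt6, a deacetylase known in mouse as a repressor of glycolytic genes, rose to 26.3 ± 1.79 CPM in KO, against 18.3 ± 1.01 CPM in FL (log2 fold change 0.52, SE 0.11, adjusted p = 0.0064), and lost its call without a filter on low counts (adjusted p = 0.058). None of the 13 fell with TMM or with total counts, where 9 were higher, as were 51.7% of all genes. Hif1a averaged 81.4 ± 11.1 CPM in KO and 69.7 ± 8.11 CPM in FL (log2 fold change 0.22, adjusted p = 0.23, and 0.81 with adjusted p = 0.0020 under total counts). Myc had 666, 482, 402 and 386 CPM in KO, against 807, 329, 843 and 494 CPM in FL (log2 fold change -0.35, SE 0.28, adjusted p = 0.38). The Myc values overlapped widely between groups, and both genes were named after their values were seen as activators of the pathway.

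**Figure D5:**
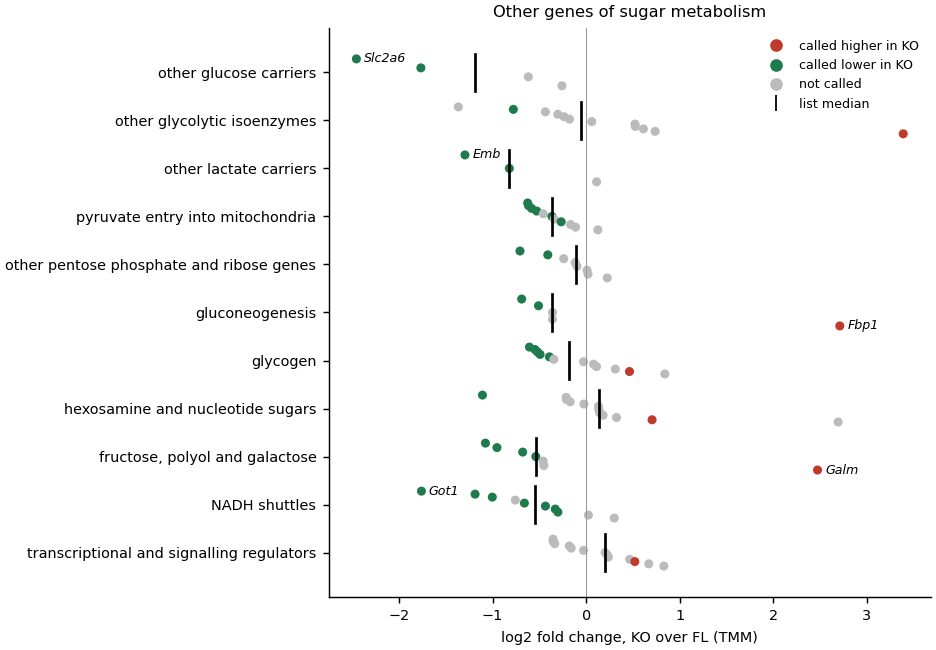
Log2 fold change of KO over FL (TMM) for the 98 tested genes of the 11 further lists, 1 point a gene, coloured by call, with a black bar at each list's median. Most list medians lie below 0 with TMM. The median over all 98 genes is -0.24 with TMM and 0.34 with total counts, which are not plotted. Fbp1, Galm and Ldhc stand at 2.71, 2.47 and 3.39 on the right, and Slc2a6 and Got1 at -2.46 and -1.76 on the left.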

How the data were processed

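Per the labels' protocols, a miRNeasy kit gave total RNA, Geo-seq amplified the mRNA, and a transposase kit made the libraries. Molecular identifiers are not named, so PCR copies count as reads. The authors deposited 1 table of raw counts per gene symbol. Build mm10, DESeq2, HTSeq 0.13.5 and Bowtie 0.12.9 appear in the submitters' processing notes, while the sheet title of the deposited counts names featureCounts, so the counting tool is unresolved. The sources used here do not state the annotation or the strand setting. The columns named wild type were taken as FL, the one group without the knockout. All 8 columns were used.

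KO was compared with FL by edgeR 4.0.16 in R 4.3.3: TMM factors, filterByExpr (17418 genes kept), a quasi-likelihood F test, and Benjamini-Hochberg adjustment over all kept genes at 0.05. Standard errors are the log2 fold change over the square root of F. CPM per kb uses exonic lengths of GENCODE M21, matched by symbol for 53292 genes (96.4%). Aldoa has 2 entries there, and the longer was used. Exons of Gapdh, Tpi1, Pfkm, Pfkp, Hk1, Hk3, Aldoa, Pdha1, G6pdx, Slc2a1 and Gpi1 overlap a gene on the other strand, and those of Pgls, Pkm, Pfkm and Tkt a gene on the same strand, so reads may be shared. Processed copies named after their gene held at most 3.47% of the counts of a gene (Eno1b for Eno1). Copies under other symbols, and reads that map to several places, were not examined. No library copied another: chi-square over degrees of freedom was 21.2 or more for each pair within a group. At totals of 33941940 to 58660705, counting error is small for genes with many counts, and there the spread between libraries sets the precision. For genes with few counts, such as Eno2, Ldhc and Abcc9, counting error adds to it.

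Same-numbered libraries had correlations of 0.0192 to 0.0474 after removal of group means, so the numbers were not taken as pairs. The edgeR, DESeq2 1.42.0 and limma 3.58.1 (voom) steps were tested on simulated data. Genes named are the 32 members, Dek and, from each further list, the 3 called genes with the smallest p. Exceptions, named after their values were seen, are Pgm2, Hif1a, Myc, Xist, CT010467.1, the marker genes (Kit, Ly6a, Cd34, Fcgr3, Fcgr2b, Ccr3, Ly6c2, F13a1, Cpa3 and Trbc2) and the neighbours of Ldhb. The members, lists and alternatives were chosen with earlier results of these data known. No set test was run.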

Additional observations from a re-analysis of the deposited data

How the results depend on the processing

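The 31 genes were recomputed under 18 alternatives, 557 gene and setting pairs in all: 471 kept direction and side of the threshold, 52 lost the call, 12 gained it and 22 changed sign. With the replicate block the genes called higher and lower numbered 1 and 20, the median log2 fold change was -0.99, and among all genes 1998 and 2341 were called; Pfkm and Pdha1 lost their calls. The count of the 31 called higher (1) became 3 with DESeq2, 2 with limma-voom, 2 with a filter of 5 CPM in 4 libraries, 7 with total counts, 0 with genes detected as a covariate (107 of all genes higher, 98 lower), and 1 to 3 with single libraries left out. The count called lower (22) became 14 with total counts, 1 with that covariate, 15 without KO replicates 2 and 3 together, and 19 to 21 with single libraries left out. The median moved to -0.41 with total counts. Of all genes, 9012 were higher and 886 lower with total counts, 3647 higher without a filter, 1368 higher with the stricter filter, 963 higher and 1338 lower without KO replicates 2 and 3, and 1456 (without KO replicate 2) to 2215 higher and 1928 to 2603 lower with single libraries left out. Of the further sugar genes, 10 were higher with limma-voom; 37 were higher and 7 lower with total counts; 1 was higher and 1 lower with the covariate; and 16 were lower without KO replicates 2 and 3. Signs turned with total counts for Slc2a1 (0.009), Hk1 (0.28), Hk2 (0.57), Hk3 (0.36), Pfkm (0.23), Pfkp (0.13), Pdha1 (0.22), Pdhb (0.051), Mpc1 (0.003), Prps1l3 (0.18), Pck2 (0.086), Gyg (0.039) and Pgm1 (0.088). Of genes near 0, Hk2 turned to 0.037 with the stricter filter, 0.00 with the replicate block, 0.19 with the covariate and 0.067 without KO replicates 2 and 3, and spanned -0.171 to 0.054 with single libraries left out. Pfkfb4 turned to -0.032 with limma-voom and -0.12 with the covariate and spanned -0.016 to 0.202. Pdk1 turned to -0.012 without a filter and spanned -0.055 to 0.13. The Ldhb share of lactate dehydrogenase counts differed by 13.2 percentage points and by 24.0 per exonic length. Ldhc turned to -1.65 with the covariate. The cause was not tested for these. Over the alternatives, adjusted p ranged from 0.0018 to 0.97 for Slc2a1, 0.037 to 0.89 for Hk3, 0.019 to 0.84 for Pfkm, 5.2e-04 to 0.36 for Pfkfb3, 0.012 to 0.92 for Pdha1, 1.9e-11 to 0.55 for Pgls and 8.9e-04 to 0.80 for Rpia, and these passed in 15, 1, 5, 4, 9, 12 and 4 of them. Eno2, with 4 to 16 counts, was tested only without a filter on low counts (0.05, adjusted p = 0.97).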

Other observations

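Ldhb lies on chromosome 6 (mm10, GENCODE M21 positions 142490249 to 142507957) and the levels of genes within 500000 bases of it were read from the same fit. Its nearest well-expressed neighbour, Golt1b, a Golgi transport gene, had 85.6, 79.4, 73.7 and 71.7 CPM in KO, against 69.7, 73.4, 74.2 and 56.0 CPM in FL (log2 fold change 0.18, adjusted p = 0.27), and passed as higher with total counts (0.76, adjusted p = 0.0028). Recql, a DNA helicase gene, averaged 27.5 ± 4.61 CPM in KO and 38.8 ± 4.12 CPM in FL (SD; log2 fold change -0.50, adjusted p = 0.023). It stood at 0.09 with total counts (adjusted p = 0.66) and at -1.09 with genes detected as a covariate (adjusted p = 0.086), and it passed in 11 of 18 alternatives. Pyroxd1 and Cmas did not pass (adjusted p = 0.31 and 0.34). Abcc9 passed as higher (log2 fold change 2.77, adjusted p = 0.011), but at 0.26 to 0.51 CPM in KO and 0 to 0.10 CPM in FL, and it passed in 15 of 17 alternatives. Kcnj8, Gys2 and Spx, which lie closest to Ldhb, were at 0.39 CPM or less in every library and were not tested. These neighbours were looked at after the value of Ldhb was seen.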
